A study of Mus musculus with 63 samples.

Results

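The genes described here are 7 subunits of the GABA-A receptor, Gabra2 (ENSMUSG00000000560), Gabra3 (ENSMUSG00000031343), Gabra4 (ENSMUSG00000029211), Gabra5 (ENSMUSG00000055078), Gabrb1 (ENSMUSG00000029212), Gabrb2 (ENSMUSG00000007653) and Gabrg1 (ENSMUSG00000001260). They were taken by name from the 56980 Ensembl genes of each count table, and all 7 were found. The genes were chosen by their measured CPM in the 4 sorted populations and in burn and sham mice of these same libraries, so the differences in level between sorted populations are given as a description, with no test. Levels are given as CPM, the reads counted for a gene as a share of all reads counted in the library, expressed per 1e6 reads. Where genes are compared with each other, CPM is divided by the length of the gene's exons and given as CPM per kb.

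GABA-A receptors are chloride channels opened by GABA, the main inhibitory transmitter of the cortex. Each receptor is a ring of subunits, most often alpha and beta subunits joined by a gamma or other subunit, and the alpha and gamma subunits set its affinity, its response to benzodiazepines and its place in or outside the synapse. The alpha2 and alpha3 subunits are known from synapses, alpha5 and alpha4 mainly from receptors outside them, and the beta subunits are needed for assembly and help form the GABA binding site. The gamma1 subunit gives receptors with a weak response to benzodiazepines. Astrocytes also carry GABA-A receptors, while microglia are known chiefly for other receptors.

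Libraries came from female C57BL/6J mice, 12 weeks old at the start, that received AAV5-CamKII-eGFP and AAV1-mDlx-mRuby2 in the motor cortex and then either a full thickness burn over 7 to 8% of the body surface or a sham procedure without the burn. Cells were sorted 5 weeks after injury. CaMKII positive cells (eGFP alone) came from 4 burn and 6 sham mice, and CaMKII-mDlx double-positive cells (eGFP and mRuby2) from 9 burn and 7 sham mice, both from the motor cortex. ACSA2-positive astrocytes came from 9 burn and 8 sham mice and CD11b-positive microglia from 8 burn and 7 sham mice, both from cortex behind the motor cortex, so that sort, virus and region cannot be told apart between the virus-labelled and antibody-labelled populations. Each library came from 1 mouse, and mice carry the same number in every population. Of 63 libraries, 58 were used. Mouse 3 was left out throughout and the double-positive library of mouse 8, with 331215 counts, was left out for its depth. The total count of the 58 libraries ran from 13346143 to 134703744, and 3 counts, the most that a count of 0 allows, corresponded to 0.0223 to 0.225 CPM, which covers counting error only.

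The labels call the CaMKII positive cells excitatory neurons and the double-positive cells inhibitory neurons, and the marker genes went against both names. In the 10 CaMKII positive libraries the median over 8 astrocyte markers was 1592 ± 304 CPM (SD), and the medians over 6 excitatory and 9 inhibitory neuron markers were 8.30 ± 6.46 and 0.748 ± 0.710 CPM. Markers of other cells lay between these levels. They were at 453 ± 192 CPM for endothelial cells, 149 ± 39.2 for mural cells, 107 ± 77.7 for microglia, 68.8 ± 74.2 for oligodendrocytes and 57.1 ± 26.6 for oligodendrocyte precursors. In the 16 double-positive libraries the median over 8 microglia markers was 1952 ± 257 CPM and that over the inhibitory neuron markers 0.0392 ± 0.0609 CPM, with Slc32a1, Dlx2, Pvalb, Sst, Vip and Lhx6 at 0 in at least 50% of them. The ACSA2-positive libraries held the astrocyte markers at 3362 ± 380 CPM (n = 17) and the CD11b-positive libraries the microglia markers at 2255 ± 251 CPM (n = 15). The populations are therefore named below by how they were sorted. The ACSA2-positive library of mouse 13 stood apart from the other 16, with excitatory neuron markers at 51.8 CPM and oligodendrocyte markers at 52.2 CPM, the highest of this population. The double-positive library of mouse 10 had the highest oligodendrocyte (43.4 CPM) and oligodendrocyte precursor (9.20 CPM) markers of its population.

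Of the 7 genes, 4 lie in a cluster on chromosome 5 in the order Gabrg1, Gabra2, Gabra4, Gabrb1, with Cox7b2 between Gabra2 and Gabra4, while Gabra5 is on chromosome 7, Gabrb2 on chromosome 11 and Gabra3 on the X chromosome. The promoters of the chromosome 5 genes are shown because their transcripts moved together across the populations. Each is the RefSeq window from 250 bases before to 50 bases after a start in GRCm38.p6, written 5′ to 3′ on the strand of the gene, with CG pairs in capitals.
Gabrg1 (chr5:70842568-70842867, minus strand): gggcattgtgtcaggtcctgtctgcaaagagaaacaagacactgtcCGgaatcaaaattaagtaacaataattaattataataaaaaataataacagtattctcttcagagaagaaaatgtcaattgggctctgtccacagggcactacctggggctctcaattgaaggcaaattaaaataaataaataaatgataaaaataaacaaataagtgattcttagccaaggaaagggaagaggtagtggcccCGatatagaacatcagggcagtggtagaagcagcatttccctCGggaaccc
Gabra2 (chr5:71095800-71096099, minus strand): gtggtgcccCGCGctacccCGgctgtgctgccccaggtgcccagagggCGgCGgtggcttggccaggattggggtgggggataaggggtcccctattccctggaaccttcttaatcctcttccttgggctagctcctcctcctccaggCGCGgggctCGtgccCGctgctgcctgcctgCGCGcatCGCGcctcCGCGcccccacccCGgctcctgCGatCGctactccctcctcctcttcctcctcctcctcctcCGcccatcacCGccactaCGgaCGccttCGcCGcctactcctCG
Gabra4 (chr5:71658259-71658558, minus strand): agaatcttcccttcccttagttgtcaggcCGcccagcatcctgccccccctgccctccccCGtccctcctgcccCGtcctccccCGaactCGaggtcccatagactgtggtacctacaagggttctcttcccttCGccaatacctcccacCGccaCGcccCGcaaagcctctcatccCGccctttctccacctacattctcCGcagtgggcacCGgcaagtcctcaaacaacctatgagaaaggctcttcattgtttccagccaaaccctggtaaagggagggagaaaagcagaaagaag
Gabrb1 (chr5:71657671-71657970, plus strand, the first of 2 listed starts): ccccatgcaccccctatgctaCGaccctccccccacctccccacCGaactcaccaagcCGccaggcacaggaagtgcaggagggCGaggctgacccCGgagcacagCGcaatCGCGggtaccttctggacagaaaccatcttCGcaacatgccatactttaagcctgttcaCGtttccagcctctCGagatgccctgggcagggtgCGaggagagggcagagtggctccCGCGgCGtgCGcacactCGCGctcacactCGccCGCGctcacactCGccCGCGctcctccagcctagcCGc

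The 4 windows had little sequence makeup in common. Gabra2 and Gabrb1 each held 25 CG pairs, Gabra4 held 12 and Gabrg1 held 3, against a median of 7 over the 32851 promoter windows of RefSeq. The GC box GGGCGG, searched on both strands, was found 2 times in Gabra2 and 2 times in Gabra4, 0 times in Gabrb1 and Gabrg1, and in 35.7% of all windows. The TATA box TATAAA was in none of the 4 windows and in 13.6% of all windows, and TTGGCA, a motif of nuclear factor I, was in none of the 4 and in 14.1%. The pentamer CCAAT occurred 1 time each in Gabra2, Gabra4 and Gabrg1, 0 times in Gabrb1 and in 37.4% of all windows. Gabra4 and Gabrb1 lie on opposite strands and overlap at their starts. Their RefSeq starts are 387 bases apart, and each gene is first read toward and past the start of the other. Their GENCODE M21 genes share 196 bases. The strand setting of the counting is not given in the sources used here, so reads from that overlap could be assigned to either gene.

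The chromosome 5 genes were highest in ACSA2-positive cells, lower in CaMKII positive cells, far lower in double-positive cells and lowest in CD11b-positive cells. Gabrb1, a beta subunit, was counted in ACSA2-positive cells at 660 ± 69.6 CPM (SD, n = 17), with the lowest library at 496, the median at 663 and the highest at 786 CPM. In CaMKII positive cells Gabrb1 was at 352 ± 121 CPM, where the 4 burn libraries held 299, 378, 391 and 431 CPM and the 6 sham libraries 137, 184, 299, 434, 461 and 506 CPM. Only the highest CaMKII positive library reached the lowest ACSA2-positive one. In double-positive cells Gabrb1 was at 10.0 ± 4.52 CPM (n = 16), between 2.97 and 20.9 CPM with a median of 9.16, and in CD11b-positive cells at 1.16 ± 0.893 CPM (n = 15), between 0.164 and 3.09 CPM. It was the only one of the 7 with counts in all 58 libraries.

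Gabrg1, which encodes gamma1, followed the same order. It was at 291 ± 44.6 CPM in ACSA2-positive cells, from 232 to 397 CPM with a median of 277, and at 134 ± 34.6 CPM in CaMKII positive cells, where the burn libraries held 120, 138, 140 and 150 CPM and the sham libraries 79.7, 99.9, 103, 146, 180 and 188 CPM. These populations did not overlap. In double-positive cells Gabrg1 ran from 0.848 to 7.89 CPM around a median of 5.34, and in CD11b-positive cells from 0 to 1.21 CPM around a median of 0.268. All double-positive libraries but that of mouse 16, at 0.848 CPM, lay above the highest CD11b-positive one.

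The alpha subunits Gabra4 and Gabra2 had the same order of populations. Gabra4 was at 54.9 ± 8.67 CPM in ACSA2-positive cells (42.5 to 71.5) and 27.2 ± 8.62 CPM in CaMKII positive cells (14.8 to 40.6), with no overlap. Gabra2 was at 46.1 ± 9.19 CPM in ACSA2-positive cells (25.3 to 58.4) and 26.8 ± 15.9 CPM in CaMKII positive cells (6.61 to 50.2), and here the ranges overlapped widely. In double-positive cells Gabra4 was at 0.917 ± 0.510 CPM, with counts in 15 of 16 libraries, and Gabra2 at 0.788 ± 0.582 CPM, with counts in 13. In CD11b-positive cells Gabra4 had counts in 6 of 15 libraries, 30 at most, and Gabra2 in 10 of 15, with 36 at most. For both, double-positive and CD11b-positive libraries overlapped. Gabra2 had the widest spread of the 4 among CaMKII positive mice, with a coefficient of variation of 59.3% against 34.3% for Gabrb1, 31.7% for Gabra4 and 25.7% for Gabrg1. Mouse 20 had 10.4 CPM of Gabra2 in CaMKII positive and 25.3 CPM in ACSA2-positive cells, and mouse 8 had 11.3 and 29.99 CPM, which were the lowest ACSA2-positive values. Mouse 17 had the lowest CaMKII positive value, 6.61 CPM, with 48.0 CPM in its ACSA2-positive cells.

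**Figure D1:**
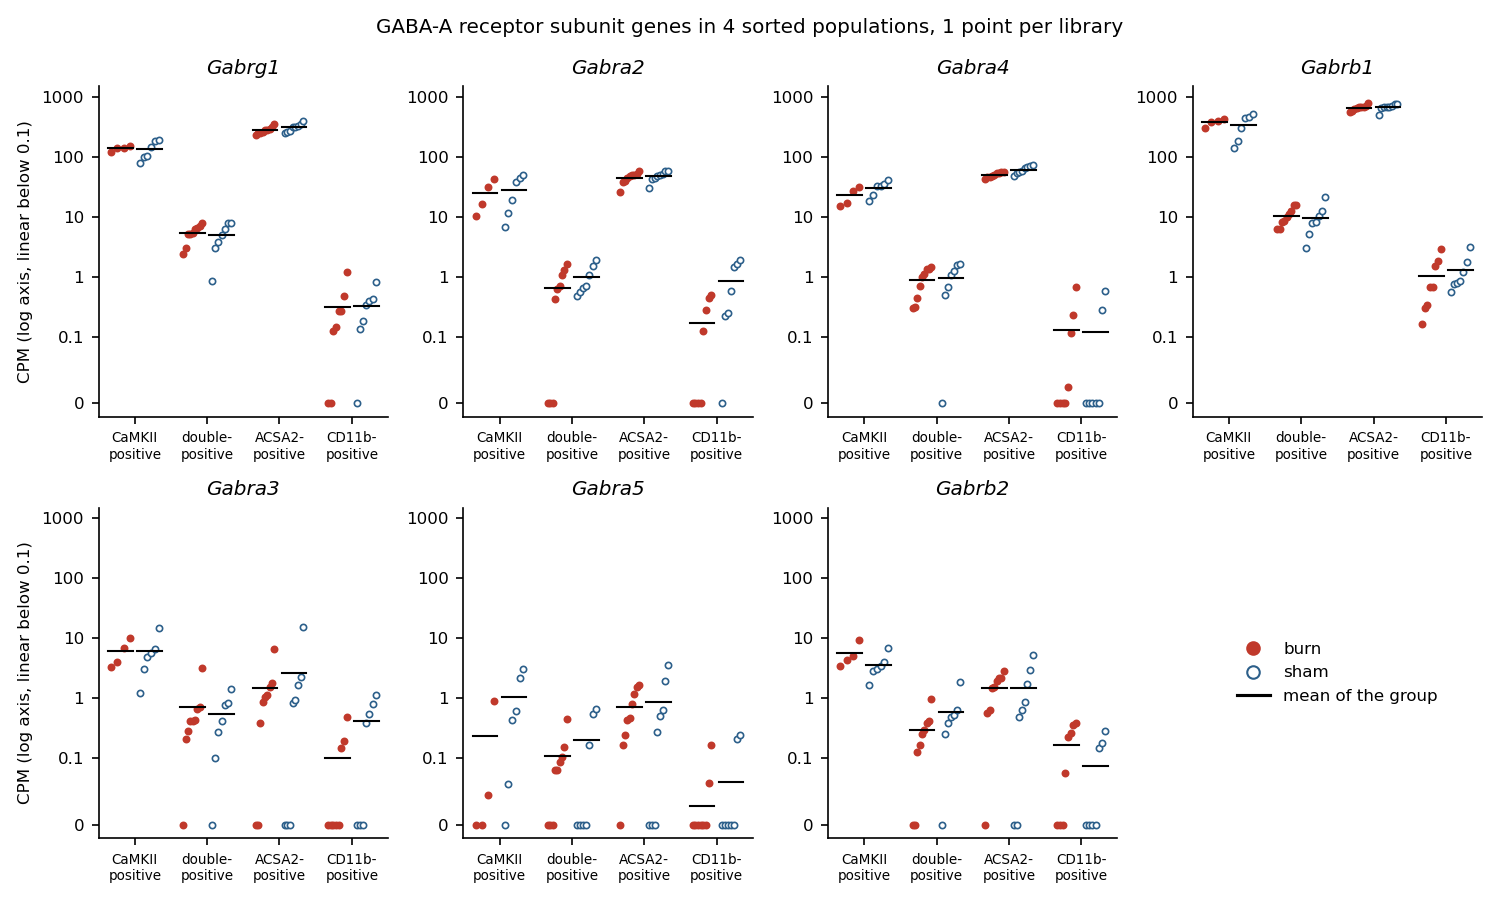
CPM of the 7 genes (vertical axis, logarithmic above 0.1 and linear below it) in each sorted population, with 1 point for each of the 58 libraries, burn filled and sham open, and a line at the mean of each group. The 4 genes of the upper row have means of 46.1 to 660 CPM in ACSA2-positive cells and of at most 1.16 CPM in CD11b-positive cells, and the 3 genes of the lower row stay near or below 10 CPM, apart from Gabra3 in single libraries.

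The other 3 genes were low throughout, and for 2 of them the CaMKII positive cells held the highest level. Gabra3, an alpha subunit, was at 6.06 ± 3.91 CPM in CaMKII positive cells, where burn libraries held 3.33, 4.07, 6.97 and 10.2 CPM and sham libraries 1.21, 3.02, 4.85, 5.71, 6.66 and 14.7 CPM. It was at 2.00 ± 3.71 CPM in ACSA2-positive cells, with a median of 0.924 CPM and 0 counts in 5 of 17 libraries. The mean rested on mouse 13, at 15.1 CPM, and mouse 10, at 6.60 CPM, since the others had at most 2.22 CPM, and it was 1.18 CPM without mouse 13 and 0.479 CPM in batch 3 alone. Excitatory neuron markers were at 51.8 CPM in the library of mouse 13 and at 12.1 CPM in that of mouse 10, and their part in the Gabra3 value was not tested. Gabra3 was at 0.636 ± 0.769 CPM in double-positive cells, with 3.18 CPM in mouse 10, at most 1.41 CPM elsewhere and a mean of 0.466 CPM without mouse 10, and at 0.246 ± 0.356 CPM in CD11b-positive cells, where 8 of 15 libraries had 0 counts.

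Gabrb2, a beta subunit, was at 4.40 ± 2.19 CPM in CaMKII positive cells, from 1.69 to 9.24 CPM, and at 1.48 ± 1.36 CPM in ACSA2-positive cells, where the highest value, 5.21 CPM, again belonged to mouse 13 (mean without it 1.25 CPM) and 3 of 17 libraries had 0 counts. In double-positive cells Gabrb2 was at 0.423 ± 0.465 CPM and in CD11b-positive cells at 0.129 ± 0.145 CPM. Gabra5, an alpha subunit, was near the limit of detection everywhere. It was at 0.788 ± 0.955 CPM in ACSA2-positive cells, with 3.64 CPM in mouse 13 and a mean of 0.610 CPM without it, and at 0.734 ± 1.08 CPM in CaMKII positive cells, with 3.10 CPM in mouse 19 and a mean of 0.471 CPM without it, and the order of these populations could not be told. It had counts in 9 of 16 double-positive libraries, 15 at most, and in 4 of 15 CD11b-positive libraries, 10 at most. For Gabra3, Gabrb2 and Gabra5, every pair of populations next to each other in mean level overlapped.

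Relative to the astrocyte markers of the same library, the chromosome 5 genes had like levels in CaMKII positive and double-positive cells, whose CPM of these genes differed from 25.8-fold for Gabrg1 to 35.1-fold for Gabrb1. Per 1000 CPM of the median astrocyte marker, Gabrb1 was at 216 ± 52.0 CPM in CaMKII positive, 198 ± 27.8 CPM in ACSA2-positive and 195 ± 51.4 CPM in double-positive libraries (SD, n = 10, 17 and 16). Gabra4 was at 17.3 ± 4.83, 16.4 ± 2.45 and 17.6 ± 9.39 CPM, and Gabra2 at 16.3 ± 8.70, 14.004 ± 3.65 and 15.7 ± 10.6 CPM in the same order. For Gabrg1 the values were 83.8 ± 9.09, 87.2 ± 13.4 and 106 ± 51.2 CPM. For each of these 4 genes the 3 means differed by less than the largest SD. Gabra3, by contrast, was at 4.29 ± 3.78, 0.662 ± 1.264 and 15.5 ± 19.9 CPM on this scale, and Gabrb2 at 2.94 ± 1.72, 0.451 ± 0.432 and 10.2 ± 14.6 CPM. In bulk libraries like these, fewer cells of a type and less RNA per cell cannot be told apart, and the part of the marker lists in the subunit levels was not tested.

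**Figure D2:**
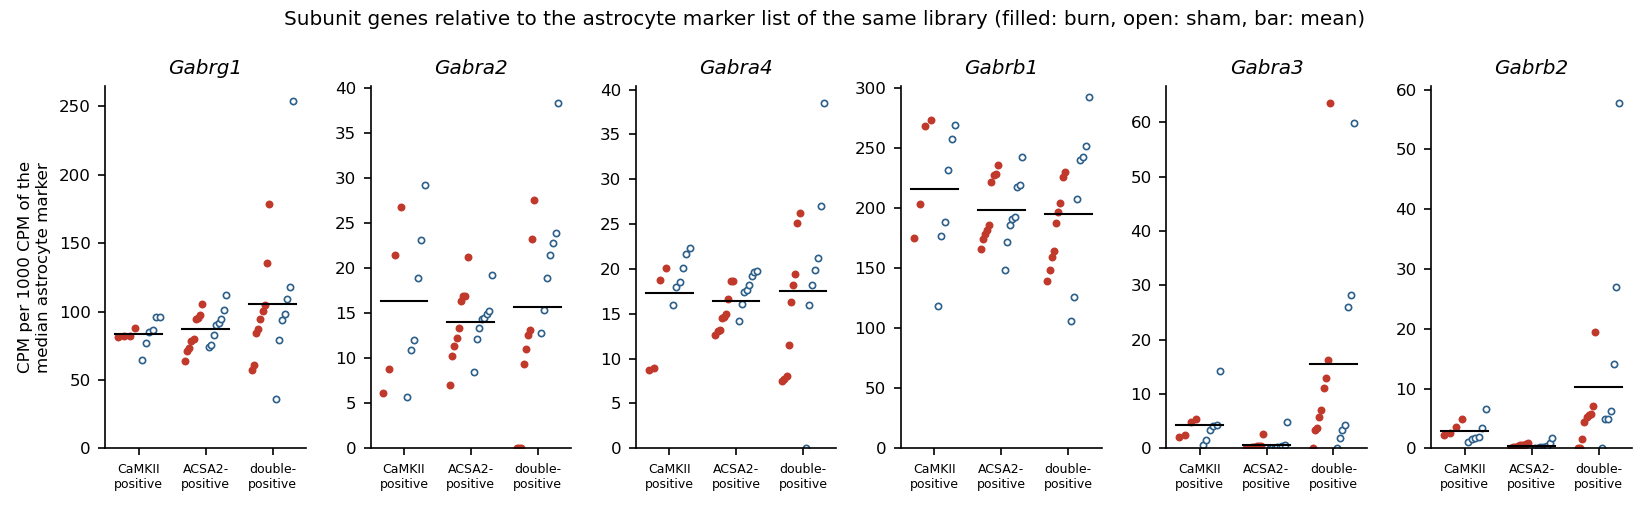
CPM of 6 subunit genes per 1000 CPM of the median astrocyte marker in the same library (vertical axes, linear from 0), with 1 point per library, burn filled and sham open, and a bar at the mean of each population. The bars of Gabrg1, Gabra2, Gabra4 and Gabrb1 lie at similar heights, such as 216, 198 and 195 for Gabrb1, and those of Gabra3 and Gabrb2 are lowest in ACSA2-positive cells, at 0.662 and 0.451.

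Within mice the pattern was the same. Of the 10 mice with both populations, all 10 had less Gabrb1, Gabrg1, Gabra2 and Gabra4 in CaMKII positive than in ACSA2-positive cells, at a median of 0.569, 0.524, 0.492 and 0.481 of the ACSA2-positive level. The median astrocyte marker was also lower in all 10, at a median ratio of 0.477. Gabra3 and Gabrb2 were higher in CaMKII positive cells in all 10 mice, with median ratios of 6.65 and 6.17 over the 5 and 7 mice with counts in both, and the median of 7 markers common to neurons was higher in 10 of 10, with a median ratio of 3.27. The median excitatory neuron marker was higher in 9 mice and lower in 1, and the median inhibitory neuron marker higher in 7 and lower in 1. The lists of microglia, oligodendrocyte precursors, endothelial cells and oligodendrocytes were higher in 10 of 10 mice as well, with median ratios of 24.1, 12.0, 7.27 and, over the 9 mice with counts in both, 6.46. Gabra5 was higher in 5 mice and lower in 5.

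**Figure D3:**
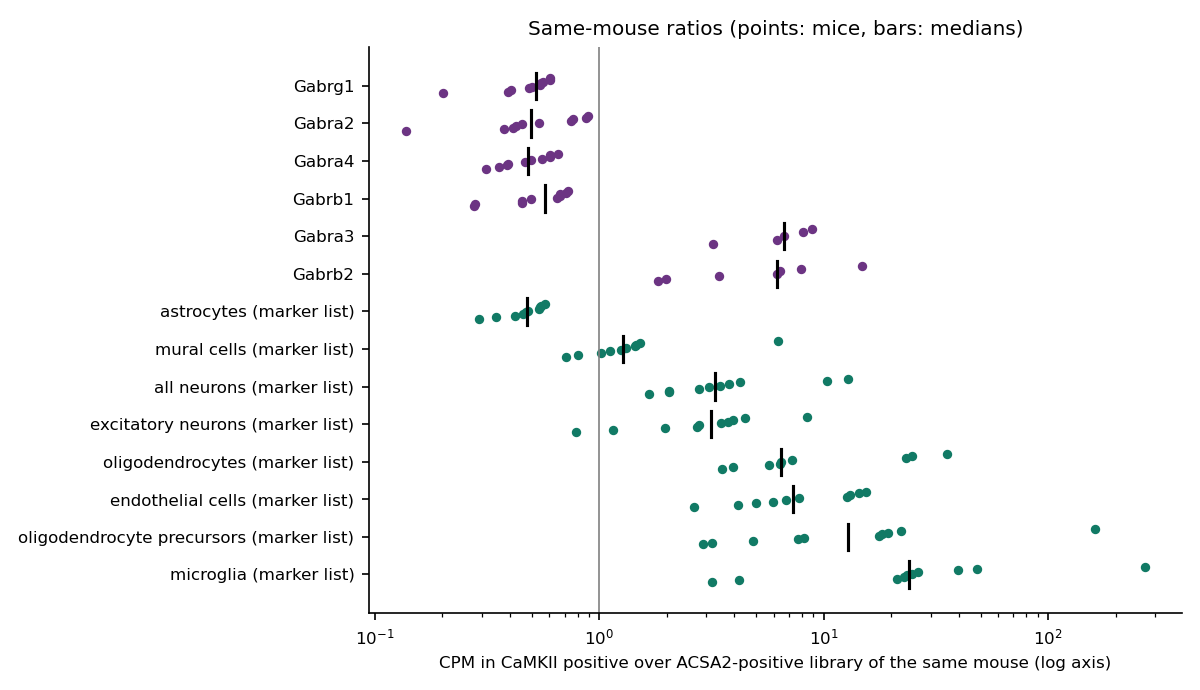
Ratio of CPM in the CaMKII positive library to CPM in the ACSA2-positive library of the same mouse (horizontal axis, logarithmic), for 6 subunit genes in purple and the medians of 8 marker lists in green. Each point is 1 of up to 10 mice with counts in both libraries and each bar the median. The 4 chromosome 5 genes lie between 0.481 and 0.569, beside the astrocyte list at 0.477, and Gabra3 and Gabrb2 lie above 1.

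Double-positive cells held 1.62% of the summed CPM of the 4 chromosome 5 genes in ACSA2-positive cells of the same 16 mice, and 1.57% of the astrocyte marker median. Against CD11b-positive cells of the same 14 mice, Gabrg1 was higher in double-positive cells in 14 and Gabrb1 in 13, with median ratios of 16.3 over the 12 mice with counts of Gabrg1 in both and 9.55 over 14. Gabra4 was higher in 12, and Gabra2 in 8 and lower in 4. The astrocyte markers were higher in double-positive cells in 14 of 14 mice, with a median ratio of 10.4, and the microglia markers were lower in 12, at 0.840.

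Per length of transcript, the 4 chromosome 5 genes had like shares of the 7 genes in CaMKII positive and ACSA2-positive cells, and Gabra3 and Gabrb2 did not. Gabrb1 made up 46.9 ± 5.70% of their summed CPM per kb in CaMKII positive and 47.4 ± 3.20% in ACSA2-positive cells, and Gabrg1 made up 32.9 ± 5.51% and 36.6 ± 3.13%. Gabra4 was next, with 8.63 ± 2.24% and 8.96 ± 1.08%, and Gabra2 had 6.14 ± 2.56% and 6.03 ± 1.24%. Gabra3 had 3.44 ± 2.97% in CaMKII positive cells and 0.488 ± 0.860% in ACSA2-positive cells, and Gabrb2 had 1.46 ± 0.907% and 0.224 ± 0.191%. The sum itself was 53.0 ± 14.5 CPM per kb in CaMKII positive, 101 ± 10.2 in ACSA2-positive, 1.92 ± 0.602 in double-positive and 0.307 ± 0.132 in CD11b-positive cells. In ACSA2-positive cells the alpha subunit with the highest CPM per kb was Gabra4, at 9.02 ± 1.43, ahead of Gabra2 at 6.04 ± 1.20, a difference larger than either SD.

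**Figure D4:**
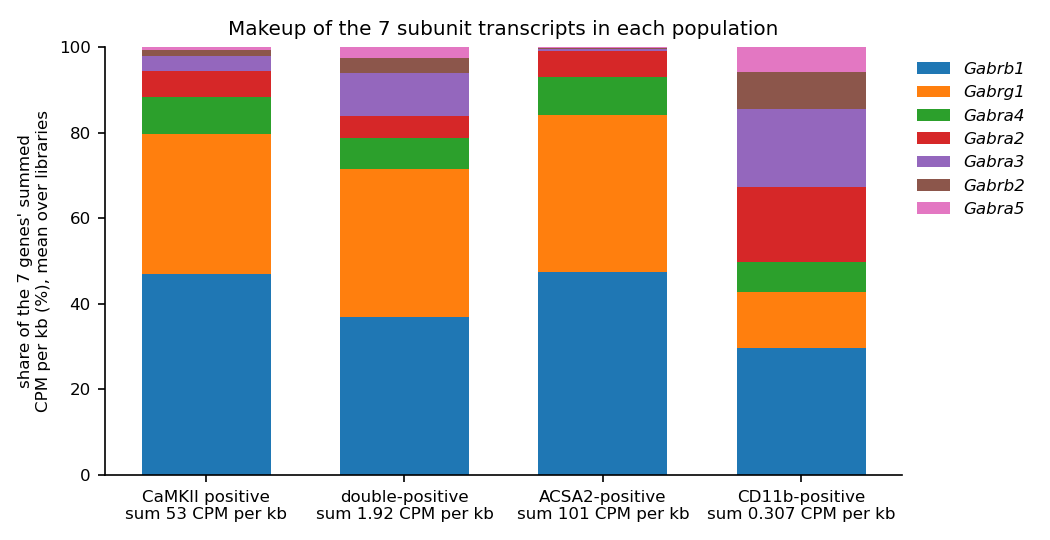
Mean share of each gene in the summed CPM per kb of the 7 genes (vertical axis, percent, from 0 to 100) in each population, with the mean sum under each bar. Gabrb1 and Gabrg1 take most of the bar in CaMKII positive and ACSA2-positive cells, and the CD11b-positive bar stands for a sum of only 0.307 CPM per kb.

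The neighbours of the chromosome 5 genes were read for comparison. Cox7b2, between Gabra2 and Gabra4, was low throughout, with 0.531 ± 0.628 CPM in ACSA2-positive, 0.428 ± 0.556 CPM in CaMKII positive, 0.00129 ± 0.00516 CPM in double-positive and 0 CPM in CD11b-positive cells, and the order of the first pair could not be told. Gnpda2, the gene before Gabrg1, varied over a far narrower range than Gabrg1 in the same order of populations, at 31.4 ± 4.93, 29.7 ± 6.09, 19.4 ± 2.86 and 17.9 ± 2.77 CPM, with the first pair and the last pair each within 1 SD. Commd8, the next gene after Gabrb1, was instead lowest in ACSA2-positive cells, with 24.2 ± 3.62 and 28.6 ± 6.66 CPM in ACSA2-positive and CaMKII positive cells and 150 ± 23.3 and 150 ± 15.2 CPM in double-positive and CD11b-positive cells.

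The genes with the pattern most like that of each subunit were sought among 14532 protein-coding genes with a mean of at least 1 CPM in 1 population, by Pearson's r of log2(CPM + 0.5) over the 58 libraries. These libraries share mice, batches and 4 sorts, so that r mainly follows the difference between populations and is given with no test. Gabrg1 was most like Plpp3, Mmd2 and Acsl6 (r = 0.995, 0.994 and 0.993), and Gabrb1 most like Slitrk2, Rorb and Ttyh1 (r = 0.995, 0.995 and 0.994). Gabra4 was most like Prdx6, Mfge8 and Abhd3 (r = 0.991, 0.990 and 0.990) and Gabra2 most like 4930402H24Rik, Nckap5 and Adgrl1 (r = 0.979, 0.978 and 0.978). Gabra3 was most like Tmem132d, Fam131b and Sytl5 (r = 0.873, 0.842 and 0.840), Gabrb2 most like Klc1, Tubb4a and Mobp (r = 0.849, 0.846 and 0.845) and Gabra5 most like Kcnh1, Actl6b and A830018L16Rik (r = 0.796, 0.749 and 0.731).

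Within the 17 ACSA2-positive libraries, after batch means were subtracted, the most like gene was another for 6 of the 7 subunits and Kcnh1 again for Gabra5 (r = 0.846). It was Gamt for Gabrb1 (r = 0.893), Hspa13 for Gabrg1 (r = 0.879), S100a1 for Gabra4 (r = 0.887) and Tfap4 for Gabra2 (r = 0.881), picked as the highest of 14532 values over 17 libraries. Gabra3 was most like Psd, Prkcb and Dlg2 (r = 0.921, 0.917 and 0.917), a relation in which mouse 13 had the highest Gabra3, and Gabrb2 was most like Pclo (r = 0.826).

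Burn and sham mice were then set side by side within each sorted population. The burn and sham values of the 7 genes had been in view when they were chosen, so their fold changes are a description with standard errors, no p of a single one of them is given, and the counts of them under a threshold support nothing about the 7. All genes were fitted in edgeR (quasi-likelihood test), with batch as a covariate and Benjamini-Hochberg adjustment over all genes tested. A call needed an adjusted p no higher than 0.05 together with a log2 fold change of 1 or more in size. None of the 7 genes was called in any population by edgeR, and none by DESeq2. In the background, edgeR called 0% of the genes tested in each of the 4 populations. DESeq2 called 0.0107% of all genes in CaMKII positive, 0.00749% in double-positive, 0.0967% in ACSA2-positive and 0.307% in CD11b-positive cells.

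In ACSA2-positive cells the deepest counted genes had small and well measured differences. Gabra4 was at 42.5, 45.3, 45.8, 47.7, 48.5, 52.9, 54.1, 54.5 and 56.2 CPM in the 9 burn libraries and at 47.4, 53.9, 55.0, 57.3, 64.4, 67.6, 68.5 and 71.5 CPM in the 8 sham libraries. The groups overlapped, and 5 sham libraries lay above every burn library. Its log2 fold change was −0.33 (SE 0.10), an 0.796-fold level. When single mice were dropped, its log2 fold change stayed between −0.38 and −0.29. In batch 3 alone, with 5 mice a group, Gabra4 was at 48.9 ± 5.59 CPM in burn and 62.5 ± 9.96 CPM in sham mice, and in batch 2, with 1 burn and 2 sham mice, at 54.5 CPM in both.

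Gabrg1 was at 276 ± 37.0 CPM in burn and 308 ± 48.8 CPM in sham ACSA2-positive cells, ranging from 232 to 353 CPM with a median of 275 and from 248 to 397 CPM with a median of 312. The log2 fold change was −0.22 (SE 0.10). It was −0.13 (SE 0.12) in batch 3 alone and −0.16 without mouse 8. The edgeR p before adjustment was under 0.05 for 2 of the 7 genes in this population and for 10.7% of all genes, and the 2 became 1 in batch 3 alone, with no batch term and without some single mice. Gabrb1 was at 655 ± 64.7 CPM in burn and 666 ± 78.8 CPM in sham mice, with a log2 fold change of −0.03 (SE 0.10), and Gabra2 at 44.9 ± 9.63 and 47.6 ± 9.07 CPM, with −0.10 (SE 0.15). The log2 fold changes of Gabrb2, Gabra3 and Gabra5 were 0.82 (SE 0.92), 0.40 (SE 1.06) and 0.37 (SE 1.18). When single mice were dropped they ran from 0.51 to 1.43, from −0.12 to 0.86 and from −0.011 to 1.51. With no batch term they became −0.10, −0.91 and −0.35. Markers of other cells moved alongside. All 7 endothelial markers had a log2 fold change above 0, with a median of 0.53 and an unadjusted p under 0.05 for 5, at 62.5 ± 21.5 CPM in burn and 43.6 ± 21.8 CPM in sham mice. Above 0 were also 5 of 6 mural (median 0.30), 5 of 7 common neuron (0.37), 4 of 6 excitatory neuron (0.37) and 5 of 7 oligodendrocyte markers (0.14). Below 0 were 7 of 9 inhibitory neuron (median −0.47), 6 of 8 microglia (−0.12) and 6 of 8 astrocyte markers (−0.13). The part of these markers in the subunit values was not tested. Astrocyte markers were at 3315 ± 457 CPM in burn and 3415 ± 293 CPM in sham mice. Per 1000 CPM of their median, Gabra4 was at 15.2 ± 2.30 CPM in burn and 17.8 ± 1.92 CPM in sham mice.

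In CaMKII positive cells the differences were within the spread between mice. Gabra4 was at 14.8, 16.6, 27.3 and 31.7 CPM in the 4 burn libraries and at 18.4, 23.1, 31.8, 32.0, 35.4 and 40.6 CPM in the 6 sham libraries, a log2 fold change of −0.45 (SE 0.29). Mice 20 and 24 held the low burn values. In batch 3 alone the log2 fold change was −0.68 (SE 0.29), while in batch 1 the only burn mouse, at 31.7 CPM, was above the only sham mouse, at 23.1 CPM. Gabrb1 had a log2 fold change of 0.23 (SE 0.33), Gabrg1 of 0.12 (SE 0.22), Gabra2 of −0.19 (SE 0.58), Gabra3 of 0.21 (SE 0.63) and Gabrb2 of 0.68 (SE 0.56). Gabra5 was at 0.236 ± 0.443 CPM in burn and 1.07 ± 1.28 CPM in sham mice, with 12 counts at most in a burn library and 68 in a sham library. Single mice set these means, mouse 22 with 0.899 CPM against at most 0.0445 CPM in the other burn mice and mice 19 and 8 with 3.10 and 2.20 CPM against at most 0.601 CPM in the other sham mice, and the log2 fold change of −2.20 (SE 2.08) ran from −6.75, without mouse 22, to −0.78, without mouse 19. None of the 7 had an unadjusted p under 0.05, which 3.9% of all genes had, and 1 of the 7 had one in batch 3 alone and without mouse 2, 8 or 22. All 8 microglia markers (median 0.68) and all 7 oligodendrocyte precursor markers (median 0.59) had a log2 fold change above 0. So did 7 of 8 astrocyte markers (median 0.23) and 5 of 6 excitatory neuron markers (median 0.23). All 6 mural cell markers (median −0.40) and all 7 oligodendrocyte markers (median −0.45) had one below 0. So did 6 of 7 endothelial markers (median −0.20), 5 of 7 markers common to neurons (median −0.25) and 6 of 9 inhibitory neuron markers (median −0.27). The part of these markers in the subunit values was not tested.

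The spread of the chromosome 5 genes among CaMKII positive libraries differed between the groups in both directions. The coefficient of variation of Gabrb1 was 45.7% in 6 sham and 14.7% in 4 burn mice, and that of Gabrg1 34.1% and 9.33%. Per 1000 CPM of the astrocyte markers the values were 27.3% and 21.0% for Gabrb1 and 14.2% and 3.74% for Gabrg1. Gabra4 had the opposite direction, with 26.8% in sham and 36.2% in burn mice and, per 1000 CPM of the astrocyte markers, 12.3% and 43.5%, and Gabra2 had 64.6% and 57.7%, and 52.4% and 63.0%. For Gabrb1 the gap between the groups was far narrower on the scale of the astrocyte markers. Sham mice 8 and 17 held the lowest Gabrb1, 184 and 137 CPM. The astrocyte markers were at 1036 CPM in mouse 8 and 1153 CPM in mouse 17, below all others, and the markers common to neurons at 13.8 and 13.4 CPM, above all others. The excitatory neuron markers were highest in burn mouse 24 (19.7 CPM, against 16.7 in mouse 8 and 13.9 in mouse 17) and the inhibitory neuron markers in sham mouse 19 (2.05 CPM, against 1.74 and 1.02). Mouse 8 also had the highest oligodendrocyte markers, 271 CPM, and mouse 17 the highest endothelial markers, 841 CPM. The part of the other cell types in the spread was not tested.

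In double-positive and CD11b-positive cells the counts were low. In double-positive cells Gabrb1 was at 10.3 ± 3.53 CPM in burn and 9.66 ± 5.85 CPM in sham mice, with a log2 fold change of 0.23 (SE 0.26), and Gabrg1 at 5.43 ± 1.77 and 4.93 ± 2.57 CPM, with 0.27 (SE 0.37). All 8 astrocyte markers also had a log2 fold change above 0 there, with a median of 0.25, and their part in the values of Gabrb1 and Gabrg1 was not tested. The log2 fold changes of Gabra2, Gabra4, Gabra3 and Gabrb2 in these cells were −0.98 (SE 0.90), −0.38 (SE 0.64), −0.22 (SE 0.91) and −1.55 (SE 1.02). When single mice were dropped, Gabra2 ran from −2.28, without mouse 23, to −0.74, and Gabrb2 from −2.08, without mouse 11, to −0.87, without mouse 17, so that neither size is well set. Batch 1 held 3 burn mice (2, 7 and 10) and no sham mouse in this population. With batch as a term these mice could not inform the fold changes, though the burn means above include them. With all 16 mice none of the 7 had an unadjusted p under 0.05, against 7.01% of all genes, and without mouse 23 there was 1 of the 7.

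In CD11b-positive cells Gabra2 was at 0.167 ± 0.209 CPM in burn and 0.859 ± 0.776 CPM in sham mice. In batch 3, with 5 mice a group, it was at 0.0981 ± 0.219 CPM in burn and 1.11 ± 0.795 CPM in sham mice. In batch 1 the 3 burn mice were at 0.282 ± 0.159 CPM and the only sham mouse at 0.219 CPM. Batch 2 held a single sham mouse and no burn mouse, so with batch as a term it could not inform the fold changes. Burn libraries held at most 20 counts and 4 of 8 held 0, while sham libraries held at most 36 and 1 of 7 held 0. Its log2 fold change of −2.91 (SE 1.37) ran from −5.90, without mouse 21, to −2.53, without mouse 23, when single mice were dropped. The edgeR p before adjustment was under 0.05 for 1 of the 7 genes and for 7.81% of all genes, and for 0 of the 7 without some single mice. Of the markers of other cells, 6 of 7 endothelial genes (median −0.90) and 6 of 8 astrocyte genes (median −0.36) had a log2 fold change below 0. So did 6 of 7 genes common to neurons (median −0.26) and 6 of 8 tested inhibitory neuron genes (median −0.36). Above 0 were 4 of 6 excitatory neuron (median 0.07) and 4 of 7 oligodendrocyte genes (median 0.16). The endothelial median was at 3.13 ± 1.95 CPM in burn and 5.95 ± 3.22 CPM in sham mice and the astrocyte median at 4.27 ± 3.52 and 6.06 ± 3.15 CPM. The median common to neurons was at 0.794 ± 0.202 and 1.27 ± 0.653 CPM. The part of these markers in the Gabra2 values was not tested. The log2 fold changes of Gabra3, Gabrb1, Gabrb2 and Gabrg1 were −2.53 (SE 1.56), −0.15 (SE 0.64), 1.01 (SE 1.52) and 0.71 (SE 1.19). Single mice set their sizes too. Gabra3 ran from −4.69, without mouse 23, to −1.38, without mouse 19, Gabrb2 from 0.46, without mouse 23, to 2.80, without mouse 15, and Gabrg1 from 0.037, without mouse 20, to 1.18, without mouse 15. No fold change is given for Gabra4 and Gabra5 in these cells or for Gabra5 in double-positive cells, where the median count was at most 3 in both groups.

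**Figure D5:**
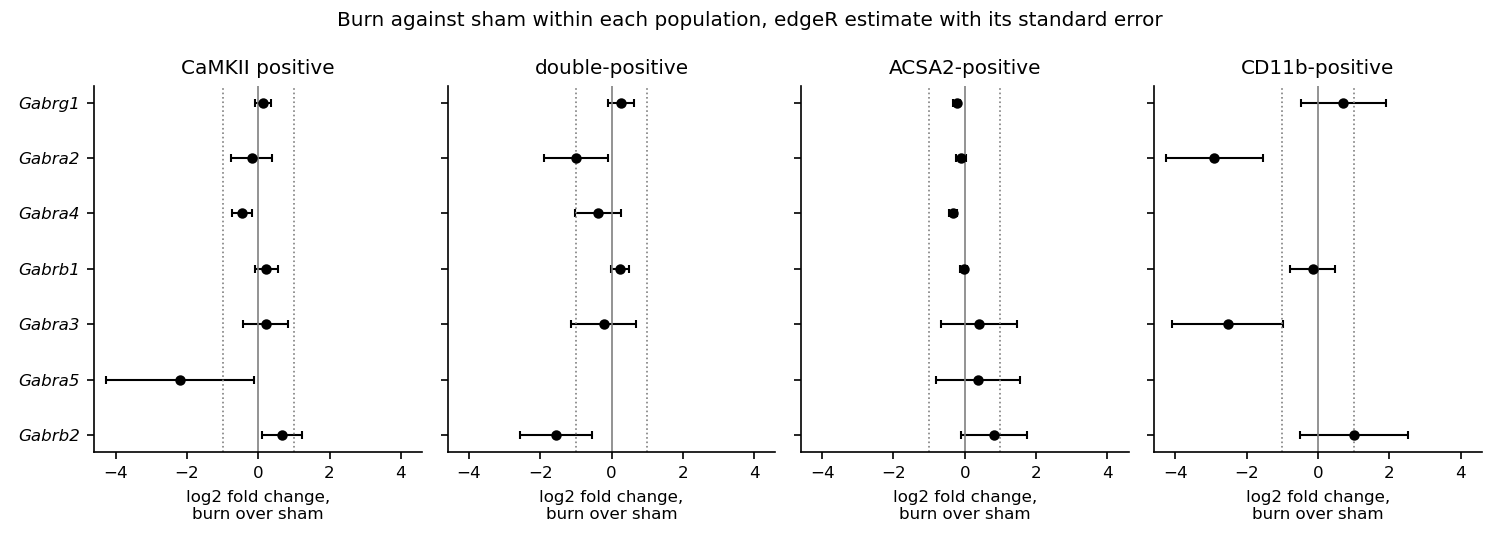
Log2 fold change of burn over sham (horizontal axes) for the subunit genes in each population, as the edgeR estimate with its standard error, with dotted lines at the fold change needed for a call. The ACSA2-positive estimates of Gabrg1, Gabra2, Gabra4 and Gabrb1 are the most precise, between −0.33 and −0.03, and genes with a median count of at most 3 in both groups are not drawn.

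The difference between the burn effects in CaMKII positive and ACSA2-positive cells was estimated in 1 edgeR fit over both populations, again with the values of the 7 genes in view when they were chosen. Called genes made up 0% of all genes by edgeR and 0.283% by DESeq2, and none of the 7 was among them. None of the 7 had an unadjusted p under 0.05 by edgeR without the pairing of mice, against 5.25% of all genes. Gabrg1 had the largest difference relative to its error, 0.41 on the log2 scale (SE 0.24), with 0.12 in CaMKII positive and −0.22 in ACSA2-positive cells. For Gabra4 the difference was −0.06 (SE 0.27), for Gabrb1 0.31 (SE 0.31) and for Gabra2 −0.04 (SE 0.53). With the mouse as a replicate block, over the 10 mice with both populations, 0 of the 7 was called. In this paired fit 1 of the 7 had an unadjusted p under 0.05, against 1.67% of all genes, and nothing is read from it. Gabrg1 stood at 0.52 (SE 0.22).

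Other genes of GABA signalling were read from lists of other subunits, receptor clustering and trafficking, GABA synthesis and uptake, chloride transporters, GABA-B receptors with their effectors, and endozepine and steroid ligands. Over these 6 lists no gene was called between burn and sham in any population. In ACSA2-positive cells 2 of 6 tested other subunits, 2 of 15 clustering genes, 1 of 9 GABA synthesis and uptake genes, 0 of 8 chloride transporters, 1 of 7 GABA-B genes and 0 of 5 ligand genes had an unadjusted p under 0.05, near the 10.7% of all genes. The list medians lay between −0.11 and 0.17 on the log2 scale, against 0.05 over all genes. In CaMKII positive cells 1 of the 49 tested genes of these lists had such a p, against 3.9% of all genes. It was Cyp11a1, a steroid synthesis enzyme with a mean of 0.0495 CPM. All 4 tested other subunits had a log2 fold change below 0 in CaMKII positive cells, with a median of −1.94. The medians of the other lists there lay between −0.10 and 0.28, against 0.02 over all genes. The smallest p in ACSA2-positive cells was that of Kcnj3, a potassium channel subunit opened by GABA-B receptors, at a log2 fold change of −0.65 (SE 0.23, adjusted p 0.458 by edgeR).

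Among the other subunits, Gabrg3, a gamma subunit, had the order of the chromosome 5 genes, with 14.8 ± 3.29 CPM in ACSA2-positive, 7.30 ± 3.52 CPM in CaMKII positive, 0.257 ± 0.245 CPM in double-positive and 0.0427 ± 0.105 CPM in CD11b-positive cells. The rho subunit Gabrr2 was below 1 CPM on average in every population. Slc6a11, a GABA transporter of astrocytes, was at 1996 ± 546 CPM in ACSA2-positive, 846 ± 192 CPM in CaMKII positive and 27.5 ± 12.5 CPM in double-positive cells. The GABA-B receptor subunits Gabbr1 and Gabbr2 were also highest in ACSA2-positive cells, at 776 ± 108 and 210 ± 43.4 CPM. Kctd12, which binds GABA-B receptors, was instead at 4198 ± 437 CPM in CD11b-positive and 4356 ± 397 CPM in double-positive cells and at 40.5 ± 14.7 CPM in ACSA2-positive cells. Gabarap, a receptor trafficking protein, was at 96.2 ± 26.7, 125 ± 11.7, 97.4 ± 16.3 and 136 ± 12.6 CPM in CaMKII positive, double-positive, ACSA2-positive and CD11b-positive cells. Dbi, the endozepine precursor, was at 214 ± 58.2 CPM in ACSA2-positive and 145 ± 75.9 CPM in CaMKII positive cells.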

How the data were processed

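RNA was measured in FACS-sorted cortical cells by total RNA sequencing after ribosomal RNA depletion. Per the labels and the methods, the authors trimmed reads with fastp, aligned them with STAR and deposited raw read counts per Ensembl gene, 1 table per population. The labels and the methods name both GRCm39 and mm10, and the strand setting of the counting is not given in the sources used here. The deposited normalised tables were not used, and 0 columns were left unassigned.

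CPM was the count divided by the total count of the library. Burn and sham were compared with edgeR 4.0.16 (R 4.3.3, limma 3.58.1) by the quasi-likelihood test with TMM normalisation, for genes with at least 10 counts in all, with batch (3 sequencing batches) and treatment as terms and Benjamini-Hochberg adjustment over all genes tested. DESeq2 1.42.0 was an alternative, as were other scalings, filters and batch handling, all deposited libraries, batch 3 alone and leaving out each mouse. Within a population, p-values measure the spread between mice. The main fit of the difference between burn effects treats libraries of the same mouse as independent, so its p-values measure the spread between libraries. The scripts were tested on simulated data. Standard errors are the log2 fold change over the square root of F.

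Libraries with the same number come from the same mouse and are paired. Over 12862 genes and 8 mice, the deviations of CaMKII positive and ACSA2-positive libraries of a mouse had a median correlation of 0.0932 (−0.0913 to 0.208).

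The 7 genes, the lists of related genes and the marker lists were chosen with earlier results of these data known. Besides the 7, the genes named were the 2 of each list with the smallest p in CaMKII positive and in ACSA2-positive cells, the 2 with the highest CPM per kb in each population, and the 3 most like each subunit. Neighbours on chromosome 5 were taken by position. Exon lengths are from GENCODE M21 and promoters from RefSeq GRCm38.p6. Some genes of these families are not reported here.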

Additional observations from a re-analysis of the deposited data

Results flagged for a closer look

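Dixon's test for a library far from the others of its group at the 95% level was run on 56 groups of 4 to 9 libraries and marked 12, where chance marks about 1 in 20 for normally distributed values. Many of these groups are mostly at 0, where that rate does not hold, so the number marked is not compared with it. For Gabra3 it marked mouse 10 in 3 populations, at 6.60 CPM in burn ACSA2-positive cells (others at most 1.76), 3.18 CPM in burn double-positive cells (others at most 0.708) and 0.480 CPM in burn CD11b-positive cells (others at most 0.195), and mouse 13 in sham ACSA2-positive cells, at 15.1 CPM (others at most 2.22). The same mouse 10 was marked for Gabrb2 in burn double-positive cells, at 0.976 CPM, and mouse 17 for Gabrb2 in sham double-positive cells, at 1.88 CPM. Gabrb1 was marked once, at 496 CPM in sham ACSA2-positive cells of mouse 17, where the other 7 lay between 648 and 751 CPM.

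Mouse 10 had 19 counts at its Gabra3 mark in CD11b-positive cells and 31 at its Gabrb2 mark in double-positive cells, and mouse 17 had 51 at its Gabrb2 mark. The remaining marks also rest on few counts. They were Gabra4 at 0.664 CPM (30 counts) in CD11b-positive cells of burn mouse 2, Gabrg1 at 1.21 CPM (28 counts) in CD11b-positive cells of burn mouse 20, and Gabra5 at 0.899 CPM (12 counts) in CaMKII positive cells of burn mouse 22, at 0.455 CPM (9 counts) in double-positive cells of the same mouse and at 0.164 CPM (3 counts) in CD11b-positive cells of burn mouse 21.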

How the results depend on the processing

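None of the 7 genes was called in any of the 5 comparisons under any alternative, and all mean levels moved by less than 1 SD between libraries. For low levels that SD is wide. Gabra3 in ACSA2-positive cells was 2.00 CPM as reported, 0.479 CPM in batch 3 alone and 1.18 CPM without mouse 13, Gabra4 in CD11b-positive cells was 0.125 and 0.0689 CPM in batch 3 alone, and Gabra5 in CaMKII positive cells was 0.734 and 0.471 CPM without mouse 19. Counts of all genes called did vary, while edgeR called 0 in the analysis as reported. DESeq2 called 3 genes in CaMKII positive, 2 in double-positive, 27 in ACSA2-positive and 80 in CD11b-positive cells and 87 for the difference between burn effects. With all deposited libraries edgeR called 136 genes in double-positive cells, and with no filter on low counts 14 there and 4 in ACSA2-positive cells.

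Of 266 log2 fold changes of single genes under alternatives other than leaving out a mouse, 248 kept their direction and 18 did not, none of them called, and the cause was not tested. With the mouse as a replicate block, the difference between burn effects became 0.20 for Gabra2, 0.11 for Gabra3, 0.064 for Gabra4 and 0.19 for Gabrb2. The pairing changed no other direction and no call, though Gabrg1 went from 0.41 to 0.52, and 0 of 29746 genes was called. With no batch term that difference became 0.0020 for Gabra2, 1.012 for Gabra3 and 0.79 for Gabrb2, and burn against sham became −0.91 for Gabra3, −0.35 for Gabra5 and −0.10 for Gabrb2 in ACSA2-positive cells, 0.36 for Gabra3 in double-positive cells and −0.070 for Gabrg1 in CD11b-positive cells. Without that term the 3 burn mice of batch 1 also count in the double-positive comparison, and the sham mouse of batch 2 in the CD11b-positive one. In batch 3 alone the values became −0.026 for Gabrb1 and −0.048 for Gabrg1 in CaMKII positive cells, 0.069 for Gabrb1 in ACSA2-positive cells and −0.073 for Gabrb1 in the difference. With all deposited libraries Gabra3 in CaMKII positive cells became −0.16, and with library size alone Gabrb1 in ACSA2-positive cells became 0.0024.

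With 1 mouse left out, 344 of 360 log2 fold changes kept their direction. The others ranged in CaMKII positive cells from −0.69 to 0.20 for Gabra2, −0.20 to 0.72 for Gabra3, −0.029 to 0.38 for Gabrb1 and −0.052 to 0.25 for Gabrg1. They ranged in ACSA2-positive cells from −0.12 to 0.86 for Gabra3, −0.011 to 1.51 for Gabra5 and −0.088 to 0.022 for Gabrb1, in double-positive cells from −0.63 to 0.12 for Gabra3 and in CD11b-positive cells from −0.57 to 0.18 for Gabrb1. Gabrg1 in ACSA2-positive cells ranged from −0.28 to −0.16. Counts were few for Gabra5 everywhere and for all 7 genes in CD11b-positive cells, whose total counts covered the range of the ACSA2-positive libraries, so the fold changes there are imprecise.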
